A study of Caenorhabditis elegans with 2 samples.

Results

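The regions described here were the entries of the replicate 2 peak list that carried the highest confidence value of that list but touched no peak of the reproducible list. The list is from ChIP-seq of EFL-1::GFP, a tagged transcription factor, in Caenorhabditis elegans larvae at the L1 stage, and 4460 of its 28686 entries (15.5%) met the rule. The entries were thus selected on replicate 2 q and on the overlap with the reproducible list: an entry was taken when its −log10 q equalled the maximum of the list, 4.22, and when it overlapped no peak of the 3824 in the reproducible list by 1 bp or more. Of the 28686 entries, 8332 (29.0%) were at that maximum. The other 3872 of these overlapped the reproducible list and are called reproducible entries below, and the 4460 at the maximum but outside it are called unlisted entries. A further 20263 entries lay under the maximum and outside the reproducible list and are called lower entries.

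There were 2 libraries of 1 group, with labels that call them biological replicates 1 and 2 and give a size range of 150 to 350 bp. All animals were of strain YL424, which carries unc-119(ed3) on chromosome III and the inserted transgene vrIs68, in which the promoter and the 3' UTR of efl-1 flank a fusion of EFL-1 with GFP and FLAG, and unc-119(+). The fusion protein was thus made where that transgene is active, and each library pooled whole larvae of mixed sex, so that signals of all cell types were joined. As antibody target the labels name efl-1, and elsewhere they speak of ChIP-seq of the eGFP fusion. No other stage, strain or treatment was analysed here, so no test between conditions was possible, and regions are not replicates. Depth was unknown, as peak lists hold no read counts, and the Wilson 95% intervals given here cover counting error over regions or genes only.

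EFL-1 is an E2F-family transcription factor that binds DNA together with its DP partner. In worms, as in flies and mammals, E2F and DP proteins join a pocket protein and the MuvB core in the DREAM complex, which represses cell cycle genes in resting cells. E2F proteins recognise short GC-rich elements, and the MuvB subunit LIN-54 recognises the cell cycle genes homology region (CHR). Most cells of the L1 larva are differentiated or arrested, among them body wall muscle, neurons and intestine.

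The first set of sequences shows what the E2F match looked like in the strongest unlisted entries. These are the 6 with the highest replicate 2 scores, on chromosomes II to V and X, that held an E2F core within 50 bp of the summit. The cores searched on both strands were TTCCCGC, the related core TTGGCGC, the core TTCGCGC and the core TTGCCGC. Each is read 5′ to 3′ on the strand of the core, from the RefSeq sequence of WBcel235 (ce11), and capitals mark the core.
K11C4.2, chrV:6888983-6889012, plus strand: cctctagagcgTTGCCGCcgatgcacgggt
vps-15, chrII:11915992-11916021, minus strand: cttgaatcgaaTTCGCGCtccgccgtactt
daf-12, chrX:10637608-10637637, plus strand: tatgggaggttTTGGCGCgaggcgaggggg
prdh-1, chrIV:13877834-13877863, minus strand: tttttcattttTTCGCGCcgtctgagcctc
crh-1, chrIII:11663285-11663314, minus strand: cttttttcaaaTTCGCGCccaaaaaattct
F57A8.1 and T06E8.8, chrV:10043449-10043478, plus strand: tgatccatttcTTGGCGCgttgccaacaaa
The names are those of the nearest protein-coding starts, or of both genes whose promoter held the summit. Only the vps-15 site and the site between F57A8.1 and T06E8.8 lay in promoters, with summits at −110 bp and −222 bp from a start. The sites nearest K11C4.2, daf-12 and crh-1 were intronic, and the prdh-1 site was outside genes. Of the 6, the crh-1 entry (replicate 2 score 44.8) was the one with a replicate 1 entry, scored 9.44. These replicate 2 scores, 40.2 to 50.8 over the set, are the authors' own values on a scale that is not stated, and scores of different lists may be on different scales.

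The second set shows dinucleotide repeats, which were searched after the data were seen. They are, for each of GAGAGAGA and GTGTGTGT, the 2 strongest unlisted entries of the same chromosomes with that repeat within 50 bp of the summit, and capitals mark the repeat that was searched.
eat-6, chrV:13130707-13130736, plus strand: catagcctaaaGAGAGAGAgaggtgagatg
gpb-1, chrII:11746954-11746983, minus strand: cgagagagagaGAGAGAGAtctctcgcagt
hda-4, chrX:16726998-16727027, plus strand: agtgtttgtgtGTGTGTGTgtgtgtgtgag
T03D3.5, chrV:2827033-2827062, minus strand: ccgctttcaaaGTGTGTGTctgtttttgtg
In the eat-6, gpb-1 and hda-4 stretches the repeat ran on beyond the capitals. Replicate 2 scored these entries 44.9 for eat-6, 43.7 for gpb-1, 48.2 for hda-4 and 46.3 for T03D3.5, and none of them had a replicate 1 entry. The gene eat-6 encodes the alpha subunit of the sodium pump, gpb-1 a G protein beta subunit and hda-4 a class II histone deacetylase.

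By replicate 2 score, the unlisted entries lay between the other groups. Every one of them scored above every lower entry. The rule used −log10 q rather than the score, but both values describe the same entries, so nothing is read from this order. Their scores were 10.3 to 88.0 with a median of 16.4 and an interquartile range of 12.7 to 22.6, against 10.5 to 6219 with a median of 90.0 in reproducible entries and 2.00 to 10.3 with a median of 3.84 in lower entries. Reproducible entries scored at or under the highest unlisted entry in 1909 of 3872 cases (49.3%), and at or under the median unlisted entry in 41 (1.06%). The ranges thus overlapped, but few reproducible entries were as low as the middle of the unlisted ones. Only 5 unlisted entries reached the lower quartile of the reproducible scores, 51.1.

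**Figure D1:**
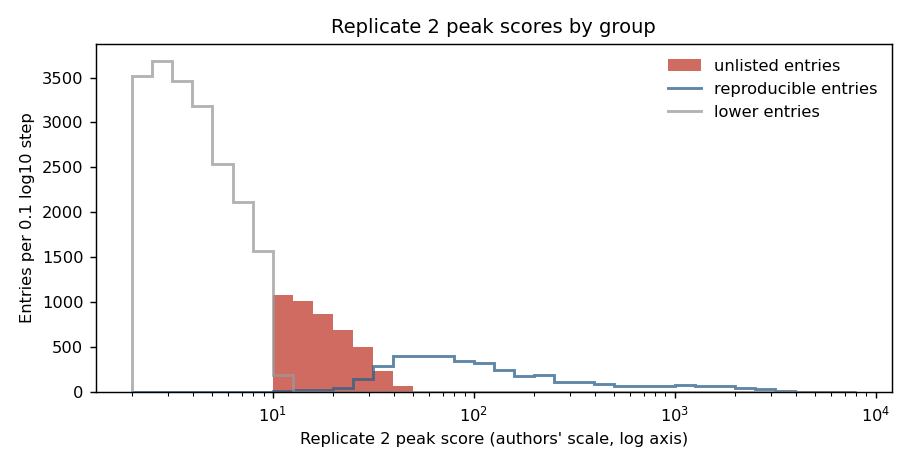
Number of replicate 2 entries per 0.1 log10 step of peak score (log axis, authors' scale) for unlisted entries (red), reproducible entries (blue) and lower entries (grey). The unlisted entries fill the range from 10.3 to 88.0, between lower entries that end at 10.3 and reproducible entries that reach 6219.

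At the limits of the rule the scores were close together. The lowest unlisted scores were 10.340 at Y34D9A.8, 10.345 at C08F8.2 and 10.345 at dpy-3, and lower entries scored up to 10.337. By −log10 q, the lower entries nearest the maximum of 4.22 were at nars-1, W01A8.6 and fat-2. These had a −log10 q of 3.77 and scores of 9.56, 9.56 and 9.56. On the side of the reproducible list, which coincided in number with the 3824 pooled entries at or above its lowest pooled score, the highest pooled scores among unlisted entries were 35.70 at alh-8, 35.69 at spsb-1 and 35.66 at his-24. The lowest pooled scores inside the list were 35.71 near C31H5.4, 35.72 near F53F8.6 and 35.75 near ppm-2. The lowest pooled scores among unlisted entries were 7.63 at K09E4.4, 7.64 at Y56A3A.31 and 7.64 at cerk-1.

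In the pooled list, made from both replicates, 3996 of the 4460 unlisted entries had an entry (89.6%, interval 88.7% to 90.5%), with pooled scores of 7.63 to 35.7 and a median of 19.1. The pooled maximum of −log10 q, 3.87, was reached by 3716 of 28550 pooled entries (13.0%) and by none over the unlisted ones, a count that the choice of entries outside the reproducible list fixes. The remaining 464 had no pooled entry at all, although replicate 2 gave them its highest confidence value. Their median replicate 2 score was 12.6, and 18.5% of them had a summit within 1000 bp of a reproducible summit, against 10.7% of those with a pooled entry.

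Replicate 1 held an entry at fewer of these regions. Its list overlapped 1131 of the 4460 (25.4%, interval 24.1% to 26.7%), against 74.5% of reproducible entries and 22.1% of lower entries. Of all windows of the usual member width of 296 bp on the 6 chromosomes, 17.7% would touch a replicate 1 entry when weighted by the chromosomes of the unlisted entries. The replicate 1 share thus lay closer to that of the lower entries than to that of the reproducible ones, and the reproducible list was itself made with replicate 1. At the maximum −log10 q of replicate 1, 3.22, which 835 of its 30000 entries reached (2.78%), the count was 0 unlisted entries and 21.6% of reproducible entries. All of those 835 overlapped the reproducible list, so nothing is read from the 0. Where replicate 1 had an entry, its score was 5.94 to 23.7 with a median of 8.71, and the best rank was 1279.

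The strongest unlisted entry scored 88.0 and lay in a coding exon of pks-1, a polyketide synthase gene, at chrX:5429505-5429584 (WBcel235). It was 80 bp wide and had neither a replicate 1 nor a pooled entry. The next, at chrX:9822643-9822938 and −518 bp from the start of dpy-22, which encodes a Mediator subunit, scored 78.0 in replicate 2, 22.7 in replicate 1 and 9.10 in the pooled list. It ranked second among the 4460 in replicate 2 and also second among those with a replicate 1 entry. The third, −323 bp from the start of the nuclear hormone receptor gene nhr-1 at chrX:17513592-17513887, scored 58.9 in replicate 2 and 32.2 in the pooled list, with no replicate 1 entry. These 3 were all on the X chromosome and more than 15 kb from a reproducible summit, the nearest distance being 15493 bp for dpy-22.

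Other strong entries lay beside reproducible peaks. The entry 170 bp upstream of a start of tba-2, an alpha tubulin gene, scored 55.4 and was 493 bp from a reproducible summit, with no pooled entry of its own. That near rpl-32, a ribosomal protein gene, scored 49.1, was 143 bp wide and lay 409 bp from one. The entry of nonu-1, which encodes an endonuclease of no-go mRNA decay, scored 47.0, was 78 bp wide and lay 458 bp from one. Narrow entries were rare, since 4438 unlisted entries (99.5%) were exactly 296 bp wide, against 37.7% of reproducible entries.

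The other entries of the 15 strongest scored 46.6 to 51.3. They were intronic in F57A8.1 (51.3), in unc-70, a spectrin gene (50.8, nearest start K11C4.2), and in crh-2, a CREB-family gene (49.0). In promoters were those of C49H3.6 (48.5, −189 bp) and vps-15, which encodes a regulator of a phosphatidylinositol 3-kinase (47.7, −110 bp). Outside genes were those nearest hda-4 (48.2), let-413, an epithelial polarity gene (47.9), Y54G11A.7 (47.8) and ZK370.4 (46.6). None of these 9 had a replicate 1 entry, and all had a pooled entry, at 28.0 to 35.4.

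Ranked by replicate 1 score instead, the leading unlisted entries were those of F45E1.4 (replicate 1 score 23.7), dpy-22 (22.7), B0228.7 (21.4), dyf-1, a gene of intraflagellar transport (20.9), and tex-2 (20.2). In replicate 2 their scores were 27.9, 78.0, 16.5, 11.3 and 43.7 in the same order. The dyf-1 entry thus lay under the lower quartile of unlisted scores, 12.7, although its replicate 1 score was among the highest 5. The tex-2 entry lay 432 bp from a reproducible summit.

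By place in the genome, a feature the rule did not use, the unlisted entries stood between the reproducible and the lower entries. Their summits were in promoters, here 500 bp upstream to 100 bp downstream of a protein-coding transcript start, in 1307 of 4460 cases (29.3%, interval 28.0% to 30.7%), against 60.2% (58.7% to 61.8%) of reproducible entries, 17.2% (16.6% to 17.7%) of lower entries and 14.2% of all bases. Coding exons outside promoters held 123 of them (2.76%, interval 2.32% to 3.28%), against 0.232% of reproducible entries, 15.3% of lower entries and 22.0% of bases. The intervals of the 3 groups did not overlap for either feature.

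Most unlisted entries lay away from promoters. Introns held 1236 (27.7%), against 14.1% of reproducible entries, 33.2% of lower entries and 30.4% of bases. Space outside protein-coding genes and their promoters held 1698 (38.1%, interval 36.7% to 39.5%), against 23.9% (22.6% to 25.3%) of reproducible entries, 30.3% (29.7% to 31.0%) of lower entries and 29.9% of bases. This was the location class that held the most unlisted entries, and their share there was above that of either comparison group. Other exons held 96 (2.15%), against 1.50% of reproducible and 3.97% of lower entries.

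**Figure D2:**
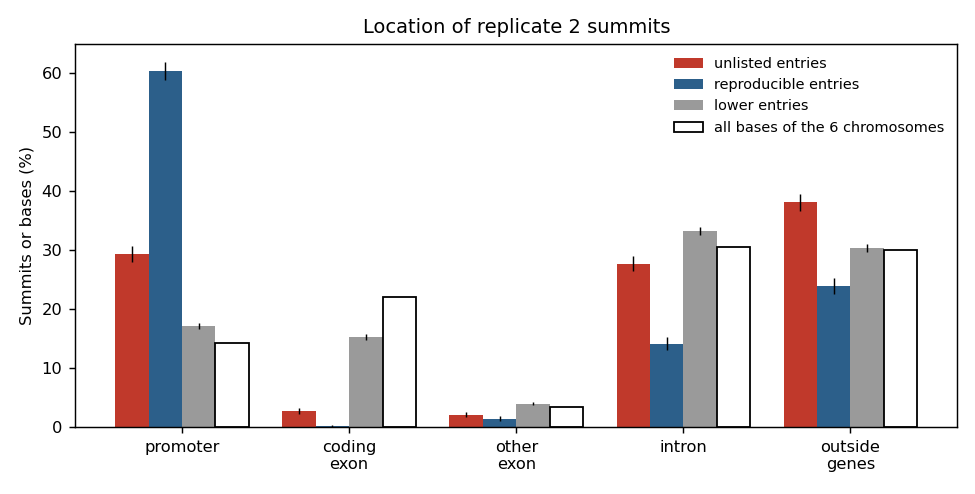
Percentage of summits in each location class for unlisted entries (red, n = 4460), reproducible entries (blue, n = 3872), lower entries (grey, n = 20263) and all bases of the 6 chromosomes (white), with Wilson 95% intervals. Unlisted entries fall between the others for promoters (29.3%) and coding exons (2.76%) and are highest outside genes (38.1%).

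Relative to the nearest protein-coding start, 3010 of the unlisted summits were upstream (67.5%), against 80.8% of reproducible and 50.2% of lower summits. The median distance to that start was 1006 bp, against 283 bp in reproducible and 1205 bp in lower entries. Those that did lie in promoters sat at much the same place as reproducible ones, with a median of −163 bp (interquartile range −287 to −68 bp) against −157 bp (−252 to −83 bp). They were seldom in a promoter shared by several genes, at 70 of 1307 (5.36%), against 672 of 2332 reproducible promoter entries (28.8%).

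Few of the unlisted entries lay close to reproducible peaks. A reproducible summit lay within 1000 bp of 514 of them (11.5%, interval 10.6% to 12.5%), against 9.94% (9.54% to 10.4%) of lower entries. The median distance to the nearest reproducible summit was 6016.5 bp, against 6138 bp in lower entries. With the 514 left out, a selection added after the data were seen, 29.1% of the remaining 3946 were in promoters.

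Within each group, entries were divided into 5 bins of equal size by replicate 2 score. From the lowest to the highest bin of unlisted entries, the promoter share was 25.8%, 26.2%, 27.2%, 30.8% and 36.4%. The highest bin (interval 33.3% to 39.6%) overlapped in interval with the lowest bin of reproducible entries, 38.8% (35.5% to 42.3%), which had a median score of 35.8 against 29.5. The highest bin of reproducible entries reached 88.8%. Between these adjoining bins the promoter share thus showed no step larger than its counting error.

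The share over a replicate 1 entry did not run on in this way. In unlisted entries it was 24.3%, 26.9%, 27.8%, 27.4% and 20.4% from the lowest to the highest bin. In the lowest bin of reproducible entries it was 60.3%, and in the highest 99.7%. Replicate 1 entered the making of the reproducible list, so a step at this limit is built into the groups.

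**Figure D3:**
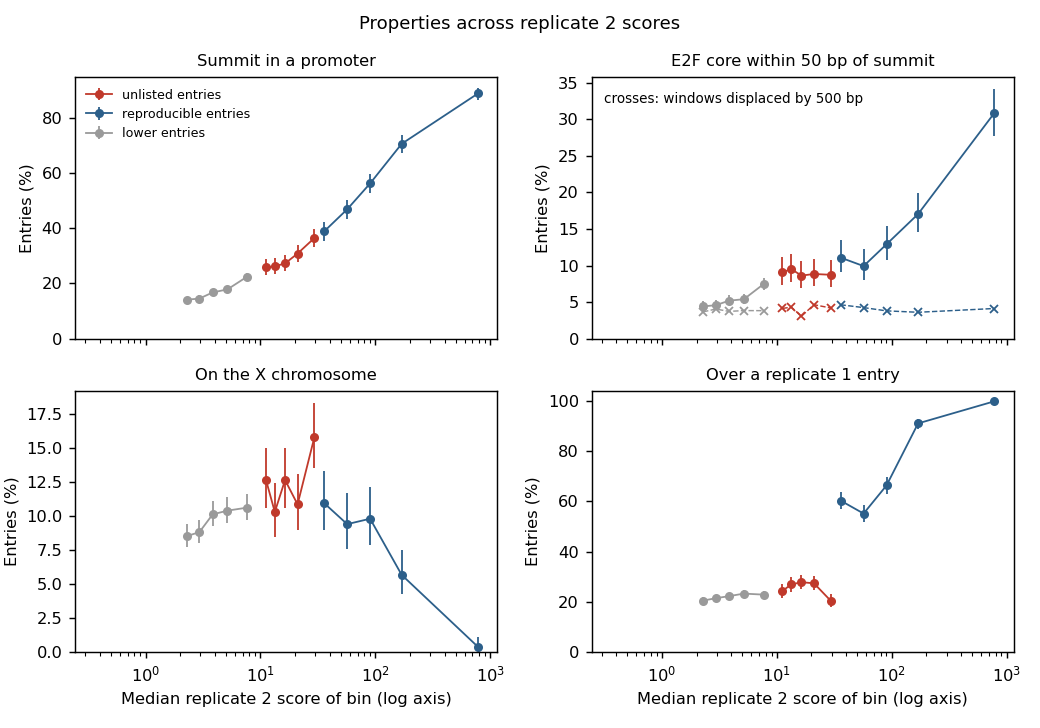
Share of entries with a promoter summit, an E2F core, a place on the X chromosome and a replicate 1 entry, in 5 bins of equal size per group, against the median replicate 2 score of the bin (log axis), with Wilson 95% intervals. Promoter share climbs through the unlisted bins (red) to 36.4%, the E2F share stays at 8.63% to 9.53% there, and the replicate 1 share steps between the red bins (at most 27.8%) and the blue reproducible bins (at least 55.1%).

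Base composition moved with the groups. Within 50 bp of the summit the GC content was 43.2% ± 7.90 in unlisted entries (SD over regions), against 45.9% ± 7.47 in reproducible and 37.5% ± 8.67 in lower entries. In windows displaced by 500 bp to either side it was 34.9% for unlisted, 36.5% for reproducible and 35.3% for lower entries, near the genome's 35.4%. So the summits of unlisted entries were richer in G and C than their surroundings, and by an amount closer to reproducible than to lower entries. Summits on soft-masked, repeat-like sequence made up 22.8% of unlisted, 20.7% of reproducible and 33.6% of lower entries, against 35.7% of bases.

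The E2F cores shown above were present at 400 of the 4460 summits (8.97%, interval 8.16% to 9.84%), against 16.4% (15.2% to 17.6%) of reproducible and 5.42% (5.12% to 5.74%) of lower entries. By score, the highest bin of unlisted entries had 8.74% (7.06% to 10.8%). The lowest bin of reproducible entries had 11.1% (9.07% to 13.5%), an overlap of intervals, and their highest bin had 30.9%. In displaced windows of the same length the share was 4.08% for unlisted, 4.09% for reproducible and 3.83% for lower entries. The same cores read backwards, which keep their composition, were at 4.42% of unlisted summits and 1.68% of their displaced windows. Both the cores and their reversed forms were thus more frequent at the summits than beside them, and the part of GC content in this was not tested. Backwards cores were at 9.74% of reproducible and 2.35% of lower summits, against 1.95% and 1.55% of their displaced windows.

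Across the 4 cores, TTCCCGC was the most frequent in unlisted entries, at 4.17% of summits (interval 3.62% to 4.80%) against 4.75% (4.13% to 5.47%) of reproducible entries, an overlap of intervals. TTCGCGC followed at 2.11% against 5.32%, then TTGGCGC at 1.73% against 5.09% and TTGCCGC at 1.48% against 2.66%. The lower share of cores in unlisted entries was therefore made up of the last 3 more than of TTCCCGC. Windows can hold more than 1 core. By location, cores were at 10.9% of intronic summits (interval 9.30% to 12.8%), 9.42% of those outside genes and 6.96% (5.71% to 8.47%) of promoter summits, and the intronic share was likewise the higher in lower entries, at 6.65% (6.07% to 7.27%) against 4.86% (4.20% to 5.63%) in promoters. Among reproducible entries 17.0% of intronic and 16.8% of promoter summits held one.

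The CHR cores TTTGAA and TTCGAA, searched on both strands, were less frequent at unlisted summits than beside them, at 23.6% (interval 22.4% to 24.9%) against 36.1% of displaced windows. Reproducible summits held them in 33.7% of cases, against 31.7% of displaced windows, and lower summits in 31.7%, against 34.4%. These cores are rich in A and T. A run of TTTTTTTT, also searched on both strands, was at 6.79% of unlisted summits and 14.2% of their displaced windows.

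Dinucleotide repeats of the kind shown above, a search added after the data were seen, were more frequent at unlisted summits than beside them. GAGAGAGA was at 339 summits (7.60%, interval 6.86% to 8.42%) and 0.695% of displaced windows, and it was at 6.10% (5.38% to 6.89%) of reproducible and 2.04% (1.85% to 2.24%) of lower summits. GTGTGTGT was at 4.19% of unlisted summits, 2.87% of reproducible and 1.30% of lower summits, and the E-box CACGTG was at 5.76% of unlisted, 4.42% of reproducible and 2.89% of lower summits. Each was searched on both strands. A match is a run of letters and does not show what binds there.

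Chromosome by chromosome, unlisted entries numbered 861 on I, 721 on II, 869 on III, 758 on IV, 695 on V and 556 on X. The X chromosome held 12.5% of them (interval 11.5% to 13.5%), against 7.26% (6.48% to 8.12%) of reproducible entries, 9.71% (9.31% to 10.1%) of lower entries and 17.7% of bases. On X, 30.9% of unlisted summits were in promoters and 7.37% held an E2F core, against 29.1% and 9.20% on the autosomes.

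The strongest entries of replicate 1 outside the reproducible list were set beside these regions. Of the strongest 3824 entries of replicate 1, 1725 lay outside that list. The summits of unlisted entries were 43.2% GC, 29.3% in promoters, 12.5% on X and 8.97% with an E2F core. Those of the 1725 replicate 1 entries were 30.5% GC, 14.6% in promoters, 28.2% on X and 2.61% with a core. The lower entries of replicate 2 had 37.5% GC, 17.2% in promoters, 9.71% on X and 5.42% with a core. The 1725 had a −log10 q of 0.562 to 2.39 in their own list, under its maximum, so library and confidence both differ between these sets and cannot be told apart.

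Among 19973 protein-coding genes, 1309 had an unlisted summit in the promoter. For 116 of these genes a reproducible summit lay in the promoter too, and 1193 genes (5.97%) had only the unlisted one. A reproducible summit was present at 2947 genes (14.8%). The gene lists below are read against these 2 shares, without a test.

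Mitosis, ribosomal protein and proteasome genes, most of which had a reproducible peak, had no gene with an unlisted summit alone. The counts were 0 of 58 mitosis and segregation genes, 0 of 81 ribosomal protein genes and 0 of 33 proteasome genes, which leave shares of up to 6.21%, 4.53% and 10.4% (upper Wilson limits). Reproducible summits were at 49, 71 and 27 of them. Of 40 DNA replication genes 1 had an unlisted summit alone and 34 a reproducible one. That gene was rfc-3, which encodes a clamp loader subunit, with scores of 10.8 in replicate 2, 9.22 in replicate 1 and 21.7 in the pooled list. A gene with a reproducible summit cannot be counted here. These lists had 6 to 10 genes without one, so few could be counted, while the limits are shares of the whole lists. Those for mitosis and proteasome genes include the 5.97% of all genes, and no shortage is read from the 4.53% for ribosomal protein genes.

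Of the 8 DREAM genes, 5 had a reproducible summit and 1 an unlisted summit alone. That gene, lin-52, which encodes a MuvB core subunit, had an unlisted summit at −424 bp (score 10.7, near the lower limit), with no entry in replicate 1 or the pooled list. Of 23 cell cycle regulators, 9 had a reproducible summit and 2 an unlisted summit alone. Of these, cyb-3, a B-type cyclin gene, had an 88 bp entry at −146 bp that scored 23.4 and held an E2F core. It had no entry in the other lists, but a reproducible summit lay 433 bp away. The entry of cdk-4, the G1 cyclin-dependent kinase gene, lay at −486 bp and scored 16.9 in replicate 2, 8.90 in replicate 1 and 23.4 in the pooled list.

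**Figure D4:**
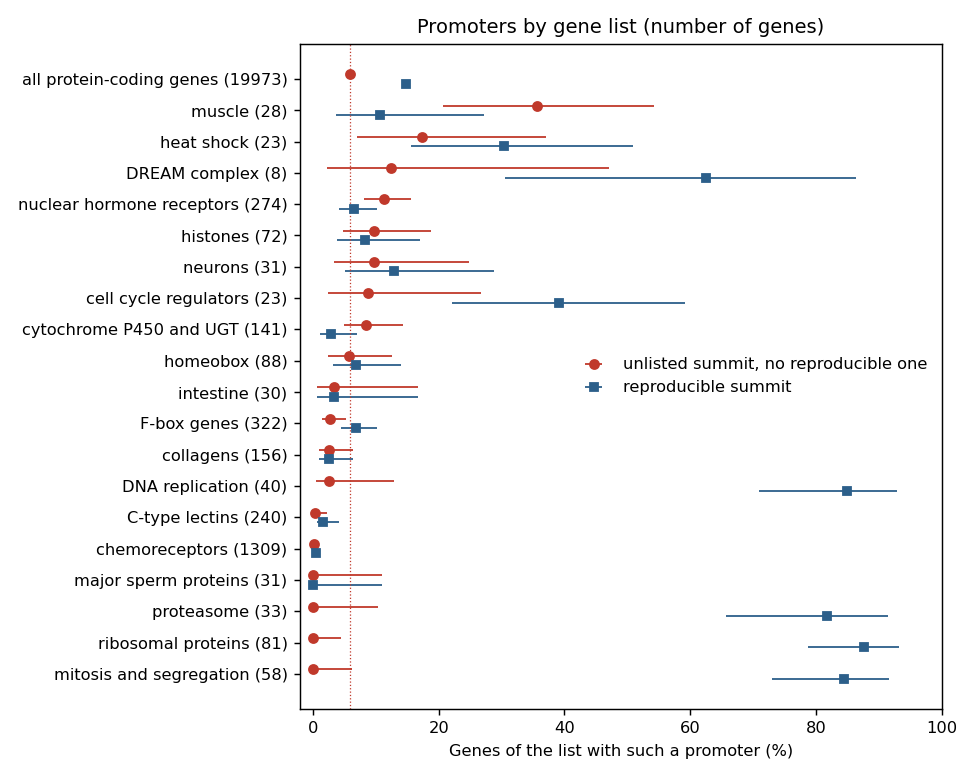
Percentage of genes in each list whose promoter held an unlisted summit and no reproducible one (red circles) or a reproducible summit (blue squares), with Wilson 95% intervals. The dotted line marks the 5.97% of all protein-coding genes; muscle genes reach 35.7% in red, and ribosomal protein, proteasome and mitosis genes are at 0 in red and above 80% in blue.

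Muscle genes had the highest share of the 19 lists. Of 28, 10 (35.7%, interval 20.7% to 54.2%) had an unlisted summit and no reproducible one, against 5.97% of all protein-coding genes, and 3 had a reproducible summit. Most of them encode parts of the sarcomere. The replicate 2 scores were 35.2 for the actin gene act-4, 31.9 for the obscurin-like gene unc-89, 29.6 for the troponin C gene pat-10 and 18.4 for the MyoD homologue hlh-1. The other 6 scored 11.5 to 13.4, namely the troponin I gene unc-27, the paramyosin gene unc-15, the myosin heavy chain genes myo-3 and unc-54, the twitchin gene unc-22 and the tropomyosin gene lev-11. Most of the muscle entries were thus near the lower end of the unlisted range.

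The muscle entries differed among themselves in the other lists. Only act-4, with its summit at −19 bp at chrX:4960454-4960749, had a replicate 1 entry (score 14.5). Of all 1193 genes with an unlisted summit alone, 313 had a replicate 1 entry and 1081 a pooled entry. In the pooled list 7 of the 10 had an entry, with scores of 9.57 at hlh-1 to 35.5 at unc-89, and unc-15, myo-3 and unc-54 had none. The pooled scores of unc-89, act-4 (29.6) and pat-10 (28.7) were above the upper quartile of all unlisted entries, 25.4. The summits lay −446 to 0 bp from a start and 2318 bp or more from a reproducible summit. None of the 10 held an E2F core within 50 bp. Of all unlisted promoter summits only 6.96% held one, so nothing is read from its lack at these 10. The number of muscle genes was 7 with promoters 0.5 times as long and 12 with promoters 2 times as long. Promoters were taken at every transcript start of a gene, and the part of the number of starts in these shares was not tested.

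**Figure D5:**
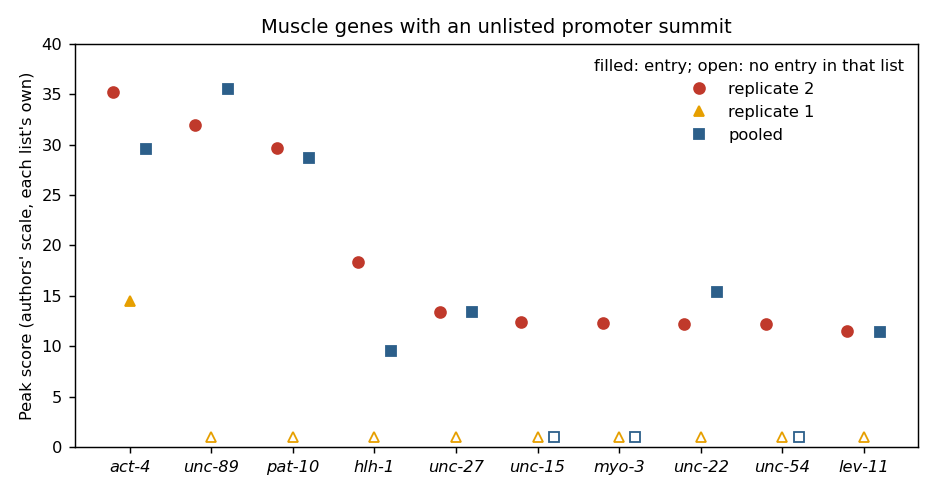
Peak scores at the 10 muscle genes whose promoter held an unlisted summit and no reproducible one, in the replicate 2 (circles), replicate 1 (triangles) and pooled (squares) lists, each on its own scale. Open symbols near 0 mark a list with no entry there: 9 of the 10 genes have none in replicate 1 and 3 have none in the pooled list.

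The other tissue lists were nearer the share of all genes. Of 31 neuron genes 3 (9.68%, interval 3.35% to 24.9%) had an unlisted summit alone, namely egl-21, a neuropeptide-processing carboxypeptidase gene (score 32.4), unc-18, a synaptic vesicle fusion gene (18.7), and mec-12, an alpha tubulin gene of touch receptor neurons (15.8 in replicate 2 and 9.32 in replicate 1). Of 30 intestine genes it was 1, the fatty acid desaturase gene fat-6, with scores of 18.1 in replicate 2, 12.0 in replicate 1 and 31.7 in the pooled list. Collagen genes had 4 of 156 (2.56%), with the highest score at col-166 (17.2).

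Nuclear hormone receptor genes, a large family of ligand-regulated transcription factors in worms, had 31 of 274 (11.3%, interval 8.09% to 15.6%) with an unlisted summit alone and 18 (6.57%) with a reproducible one. For all protein-coding genes the order of these 2 shares was the other way round, 5.97% and 14.8%. The scores of the 31 were 10.5 to 58.9 with a median of 20.5, against a median of 18.0 over all 1193 genes. The strongest were nhr-1, given above, and nhr-182 at −40 bp (35.7). Of the 31, 30 had a pooled entry and 9 a replicate 1 entry, against 1081 and 313 of the 1193 genes. Neither count is thus read as particular to this family.

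Cytochrome P450 and UDP-glucuronosyltransferase genes, which serve detoxification, had 12 of 141 (8.51%, interval 4.94% to 14.3%) with an unlisted summit alone and 4 (2.84%) with a reproducible one. The strongest were ugt-26, at 25.9 in replicate 2 and 13.3 in replicate 1, and ugt-20, at 23.2 and 10.6. Heat shock genes had 4 of 23, the small heat shock protein gene hsp-12.6 (19.5), the mitochondrial chaperonin gene hsp-60 (16.0), hsp-70 (15.9) and hsp-43 (10.5), and 7 with a reproducible summit. No replicate 1 entry lay at any of these 4. Of all 1193 genes with an unlisted summit alone only 313 had one, so nothing is read from this.

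Histone genes had 7 of 72 with an unlisted summit alone, from 4 entries. The strongest was at his-24, which encodes a linker histone (43.6, −27 bp). The others lay between the members of divergent pairs, his-3 and his-4 (29.1), his-61 and his-62 (21.0), and his-31 and his-32 (16.9). Core histone genes exist as near-identical copies, and how reads that fit several copies were placed was not given in the sources used here, so these counts are uncertain.

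Chemoreceptor, C-type lectin and F-box genes were seldom counted. Chemoreceptor genes had 3 of 1309 (0.229%), led by sre-18 (18.7) and str-12 (17.1). C-type lectin genes had 1 of 240, clec-57 (20.8), and F-box genes 9 of 322 (2.80%), led by fbxa-4 (20.5) and fbxc-36 (18.2). Major sperm protein genes had 0 of 31, with an upper limit of 11.0% that includes the 5.97% of all genes, so no shortage is read from it. Homeobox genes were near the share of all genes, with 5 of 88 (5.68%, interval 2.45% to 12.6%), led by ceh-100 (39.7) and ceh-74 (28.6). The ceh-100 entry was 91 bp wide and lay 520 bp from a reproducible summit.

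Transfer RNA genes were the non-coding class with most unlisted entries relative to its size. A summit lay within 200 bp of a tRNA gene in 129 cases (2.89%, interval 2.44% to 3.43%), against 3.07% (2.57% to 3.67%) of reproducible and 0.464% (0.379% to 0.567%) of lower entries. Of 612 tRNA genes, 139 (22.7%) had an unlisted summit alone and 130 (21.2%) a reproducible one. So unlisted and reproducible entries lay at tRNA genes about equally often. The 129 had a median score of 20.0, against 16.3 for all other unlisted entries, and 25 of them (19.4%) had a replicate 1 entry, against 25.5%. On X lay 56 (43.4%), where 45.1% of tRNA genes are. Copies of tRNA genes are alike, so their counts are uncertain in the same way as those of histone genes.

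The strongest tRNA entries were at chrX:2227129-2227424 (score 46.5) and chrII:3567704-3567999 (45.4). Small nucleolar RNA genes had an unlisted summit within 200 bp in 31 cases (0.695%), against 2.25% of reproducible and 0.286% of lower entries, with the highest scores at K11C4.6 in an intron of unc-70 (50.8) and at ZK484.11 (44.8). Small nuclear RNA genes had 13 (0.291%), against 0.387% of reproducible and 0.0740% of lower entries, led by sls-2.7 (43.1) and sls-2.14 (37.5), which encode the SL2 spliced leader RNA. MicroRNA genes had 8, led by cel-mir-8192 (32.1) and cel-mir-45 (22.7), and 10 of 261 microRNA genes (3.83%) had an unlisted summit alone, against 11 with a reproducible one.

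The piRNA share was lower than that of the lower entries, unlike that of tRNA genes. Genes of piRNAs, small RNAs of the germ line, had an unlisted summit within 200 bp in 50 cases (1.12%, interval 0.851% to 1.47%), against 0.801% (0.565% to 1.13%) of reproducible and 1.88% (1.70% to 2.08%) of lower entries, led by 21ur-5229 (38.0) and 21ur-14788 (31.7). Pseudogenes had 42 (0.942%), against 0.878% of reproducible and 1.14% of lower entries, led by WBGene00016304 (29.5) and WBGene00022163 (28.6). Genes of long intergenic RNAs had 29 (0.650%), against 0.620% of reproducible and 0.385% of lower entries, led by linc-44 (29.5) and linc-136 (28.1). Of 20 ribosomal RNA genes, 0 had an unlisted summit alone and 0 a reproducible one.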

How the data were processed

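ChIP-seq peak lists of 2 libraries of 1 group were used, all in ce11 (WBcel235) except where ce10 is named. Deposited text files say that the authors called peaks and background on each replicate and on both pooled, against a control, and made the optimal list from these by IDR. For the peak caller, the aligner and the threshold of IDR, the method was not given in the sources used here. Controls and signal tracks were not analysed here. The score in column 7 is the authors' deposited value, with no stated scale, so levels were not compared between lists. The −log10 q-value in column 9 and the summit offset in bp in column 10, another deposited value, are also the authors'.

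Overlaps of 1 bp or more were found between lists. Genes were those of Ensembl release 115 on WBcel235, and sequence was the RefSeq copy of that assembly, with none printed from chromosome I. Each summit took the first that applied of promoter (−500 to +100 bp of a protein-coding transcript start), coding exon, other exon, intron and outside genes. Cores were sought within 50 bp of the summit and in windows displaced by 500 bp to each side. Shares have Wilson 95% intervals, for counting error only, and no test was made between groups of regions. Python 3.11.15, numpy 2.4.6, pandas 2.3.3 and matplotlib 3.10.9 were used, and the overlap, promoter and motif steps were checked on simulated data.

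The regions, gene lists and cores were chosen with earlier results of these data known. Named were the 15 members with the highest replicate 2 score, the 5 with the highest replicate 1 score, the 3 with the highest and lowest pooled score, the 3 entries on each side of each threshold, the 2 strongest genes per list and per non-coding class, and the 6 strongest sequences with an E2F core. Other genes, repeats and sequences were chosen after their values were seen, namely the remaining members of the muscle, heat shock, histone and neuron lists, the genes at dinucleotide repeats and the genes in the closing section. Alternatives changed the overlap, the q threshold, the promoter length, the window, the reproducible list and the build.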

Additional observations from a re-analysis of the deposited data

How the results depend on the processing

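The number of unlisted entries was 4460 and stayed within 1.5 times of that with other overlap rules (4543 and 4516), with pooled entries at the maximum q as the reproducible list (4571) and in ce10 (4481). It was 8896 with a −log10 q above 2 and, by construction, 2230 in the stronger 50%. Leaving out 1 replicate gave 0 without replicate 2 and 4462 without replicate 1, and the number of genes was 0 without replicate 2 and 1183 without replicate 1. The reproducible list was itself made with replicate 1, so the values without replicate 1 are not read as stability. Without replicate 2 no shares could be computed, nor the replicate 1 share without replicate 1. The promoter share of 29.3% was 32.3% in the stronger 50%, 42.5% and 19.6% with promoters 2 and 0.5 times as long, and 42.2% with starts of all annotated genes. The replicate 1 share of 25.4% was 13.8% with 50% overlap, 13.8% with the summit inside the entry, 0% at the replicate 1 maximum q and, added after the data were seen, 27.4% among entries with a pooled entry. The E2F share of 8.97% was 4.89% and 13.7% within 25 and 100 bp, against 2.06% and 7.90% in displaced windows. The number of genes, 1193, was 846 to 1553 over promoter lengths and 1150 by nearest start. The cause of these moves was not tested beyond what each setting builds in. No paired analysis was possible because both libraries belong to 1 group. At unknown depth, the lack of a replicate 1 entry does not show that signal was absent there.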

Other observations

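Several genes were the nearest to many unlisted entries, and these genes were chosen after their values were seen. The 4460 entries had 3181 different nearest protein-coding genes, of which 805 had 2 or more entries and 51 had 5 or more, against 3337, 419 and 11 for the 3872 reproducible entries and 8685, 4713 and 902 for the 20263 lower entries. The most, 12, were nearest egl-27, which encodes a homologue of the MTA subunits of nucleosome remodelling and deacetylase complexes (chrII:6835008-6847908). Of these 12, 6 were intronic, 5 outside genes and 1 in a promoter, with scores of 10.6 to 27.9. No reproducible entry had egl-27 as its nearest gene, and 1 of the 12 had a replicate 1 entry. The CREB gene crh-1 had 10 entries, 9 of them intronic, with scores of 10.4 to 44.8, 4 replicate 1 entries and 2 reproducible ones. The next were T28B11.1 and tent-5 with 9 each, and fkh-7, a forkhead gene, mnk-1, sea-2 and tir-1 with 8 each. The insulin-pathway transcription factor gene daf-16 had 7, with scores of 11.4 to 33.3, of which 3 had a replicate 1 entry. As many were nearest mstr-1. Gene lengths ranged widely, with 36215 bp for crh-1, 26206 bp for daf-16 and 2479 bp for mstr-1, and the part of gene length was not tested.

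Families of gene names with 40 or more members were counted after the data were seen. Of 94 unc genes, named for uncoordinated movement, 16 (17.0%) had an unlisted summit and no reproducible one, against 5.97% of all protein-coding genes, and 20 (21.3%) a reproducible one, against 14.8%. Muscle genes of the list are among the 94. Glutathione S-transferase genes of the gst family had 7 of 44 (15.9%) and 3 with a reproducible summit. UDP-glucuronosyltransferase genes had 8 of 67 (11.9%) and 0 with a reproducible summit, whereas the cyp family had 4 of 74 (5.41%) and 4. Among families with many reproducible summits, mitochondrial ribosomal mrpl genes had 1 of 41 against 22 and lin genes 2 of 47 against 16. A gene with a reproducible summit cannot be counted with an unlisted one alone, so no shortage is read from either. The family counts overlap with those of the lists and are not independent of them.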
